A study of Mus musculus with 16 samples.

Results

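The genes described here encode proteins of the cardiac thin filament, the Z-disc and the M-band, with titin and a few assembly factors. They are 35 genes of the 55487 in the count tables, taken by their symbols from a given list, and each symbol had a single entry. Myosins, calcineurin regulators and small heat shock genes were left out of the list. The rule takes genes by symbol and not by a measured value, but the list was drawn up with earlier results of these data known. Left ventricles of 16 C57Bl/6J mice aged 24 months were sequenced, 8 from mice with more than 3 past pregnancies (multiparous) and 8 from virgin mice. No mouse had been treated, and all hearts were flushed with cold buffered saline before the middle section of the left ventricle was taken. The comparison asks what parity leaves in the transcripts of the aged heart. Library names carry the code AA in all 8 virgin libraries and P (4 libraries) or MP (4 libraries) in the multiparous ones. What the codes stand for is not given in the sources used here, so parity and library code cannot be told apart.

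The sarcomere is the repeating contractile unit of striated muscle. Thin filaments of actin, tropomyosin and troponin are anchored in the Z-disc and slide past myosin filaments, which are held in register at the M-band, while titin spans from Z-disc to M-band as a spring and scaffold. Z-disc and intercalated disc proteins also tie the contractile apparatus to desmin filaments and to the cell membrane, and several of them shuttle to the nucleus or serve as docking sites for signalling enzymes.

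Virgin 8 was sequenced most deeply, with 228325238 counts assigned to genes, and the other 15 libraries held between 34560606 and 58890976. All 35 genes passed the filter on low counts. Levels are in CPM, counts scaled to a common library size after correction by TMM factors, and the 35 genes together took between 5.47% of scaled counts in virgin 1 and 7.91% in virgin 2. The tissue label was checked with 12 cardiomyocyte genes outside the list, which summed to 59629 to 75190 CPM. Skeletal muscle markers summed to 1.87 to 4.17 CPM, with the fast myosins Myh1, Myh2 and Myh4 listed at 0 in some libraries of both groups. The 5 atrial markers summed to 33.8 to 120 CPM in multiparous and 26.2 to 105 CPM in virgin libraries, with means of 69.2 and 41.9 CPM. Most of that sum was the natriuretic peptide gene Nppa (66.6 against 39.5 CPM, log2 fold change 0.75, edgeR adjusted p = 0.511), while the atrial light chain Myl7 averaged 0.251 and 0.302 CPM and Sln 0.0029 and 0.0213 CPM. Virgin 1 stood apart. It was the lowest of the 8 virgin libraries for 21 of the 35 genes, and it had the lowest sum of cardiomyocyte markers and the highest sum of macrophage markers (587 CPM) of all 16. Virgin 2 was the highest of all 16 libraries for 16 of the 35 genes. Whether every library came from its own animal is not spelled out beyond the number of mice, and p-values measure no more than the variation among these libraries.

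The members differed widely in level. Per kilobase of exon, cardiac actin Actc1 stood highest at 5124 CPM per kilobase over all 16 libraries. Cardiac troponin C (Tnnc1, 1479) and cardiac troponin I (Tnni3, 1345) followed on the same scale. The length counts all annotated exonic bases of a gene, so the order depends on it. Tpm1 with 6485 such bases stood at 744, and Tnnt2 with 7752 at 335. Pdlim3, a PDZ-LIM protein of the Z-disc, was lowest at 1.82 CPM per kilobase. Titin (Ttn), with 116825 annotated exonic bases, measured 187 CPM per kilobase, yet its length gave it between 27.5% and 43.5% of the summed CPM of the 35 genes. Most members were steady from library to library: the highest library was between 1.24 and 1.72 times the lowest for 30 of the 35. The other 5, named here after their values were seen, were the skeletal actin gene Acta1 (5.58 times), Pdlim3 (2.89), the titin cap Tcap (2.36), myomesin 2 (Myom2, 1.99) and Ttn (1.91). The plot of levels per kilobase shows both the order and these wider genes.

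**Figure D1:**
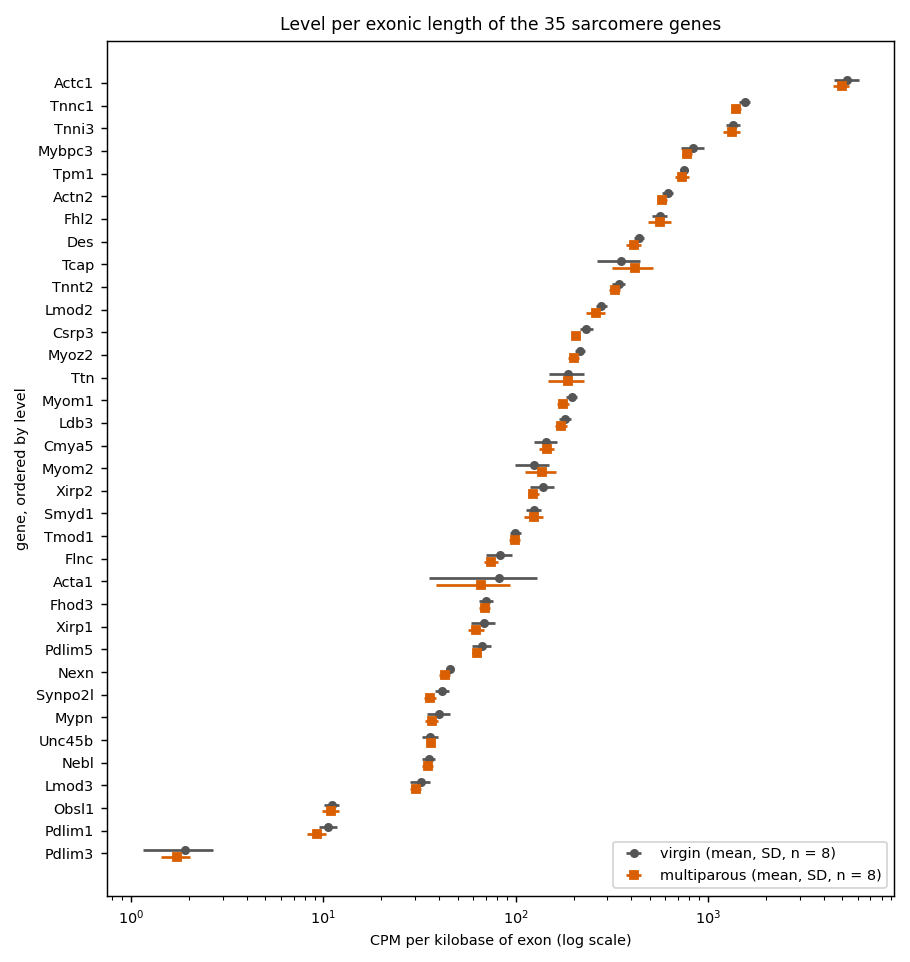
Level of each of the 35 genes in CPM per kilobase of exon (log axis), as mean and SD of 8 virgin and 8 multiparous libraries, ordered by level. Actc1 stands highest at 5124 and Pdlim3 lowest at 1.82 over all 16 libraries, and the SD bars are widest for Acta1, Pdlim3, Tcap, Myom2 and Ttn.

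Promoter sequences from RefSeq (GRCm38.p6) were matched for 29 of the 35 genes, with 39 start sites in all. The 250 bases before each start were searched on both strands for the CArG box, which serum response factor binds, the MEF2 site, and CATTCC, the core of the site for TEAD factors. A CArG box was found in 8 of the 39 promoters (20.5%, against 1.47% of 32851 RefSeq promoters), those of Acta1, Actc1, Fhl2, Ldb3, Myom1 and Nebl. These promoters belong to 6 of the 29 genes, and the overlapping Ldb3 windows hold the same box, so it is counted more than once. A MEF2 site was found in 7 (17.9%, against 2.92%), those of Fhl2, Mybpc3, Myoz2, Synpo2l, Ttn and Xirp2. CATTCC was found in 9 (23.1%, against 12.6%). No CArG box overlapped a MEF2 site in these promoters. Shown are Actc1, the member with the highest level per kilobase, and 4 of the 7 genes with an unadjusted p under 0.05 between groups. The 4 were chosen because their promoters hold a motif. Csrp3, with the second smallest p, has 2 promoters in the table and Pdlim1 has 1, and none of these holds any of the 3 motifs. Capitals mark a CArG box in Actc1 and Myom1 (47 and 99 bases before the start), a MEF2 site in Synpo2l and Myoz2 (109 and 33 bases) and CATTCC on the opposite strand in Tnnc1 (58 bases). Each runs 5′ to 3′ on the strand of its gene, and a match is a description of the sequence, not a measured binding site.
Actc1, chr2:114052876-114053125, minus strand: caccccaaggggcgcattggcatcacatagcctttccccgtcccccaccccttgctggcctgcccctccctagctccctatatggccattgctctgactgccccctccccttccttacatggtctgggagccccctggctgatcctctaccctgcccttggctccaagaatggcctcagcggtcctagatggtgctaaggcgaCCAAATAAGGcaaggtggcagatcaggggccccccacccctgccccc
Myom1, chr17:71019307-71019556, plus strand: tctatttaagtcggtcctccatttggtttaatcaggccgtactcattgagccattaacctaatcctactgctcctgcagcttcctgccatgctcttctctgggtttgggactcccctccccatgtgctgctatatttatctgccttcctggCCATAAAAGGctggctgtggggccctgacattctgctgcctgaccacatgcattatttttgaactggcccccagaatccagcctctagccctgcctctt
Synpo2l, chr14:20668355-20668604, minus strand: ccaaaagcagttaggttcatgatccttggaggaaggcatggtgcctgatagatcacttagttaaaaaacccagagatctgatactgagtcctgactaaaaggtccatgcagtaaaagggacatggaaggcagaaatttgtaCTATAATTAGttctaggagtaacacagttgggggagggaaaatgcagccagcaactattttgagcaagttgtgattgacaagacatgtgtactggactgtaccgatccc
Myoz2, chr3:123034988-123035237, minus strand: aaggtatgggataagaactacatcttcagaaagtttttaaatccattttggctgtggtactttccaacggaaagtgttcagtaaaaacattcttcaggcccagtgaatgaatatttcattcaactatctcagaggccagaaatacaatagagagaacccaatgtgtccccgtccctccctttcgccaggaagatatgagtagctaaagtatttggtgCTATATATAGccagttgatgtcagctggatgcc
Tnnc1, chr14:31208062-31208311, plus strand: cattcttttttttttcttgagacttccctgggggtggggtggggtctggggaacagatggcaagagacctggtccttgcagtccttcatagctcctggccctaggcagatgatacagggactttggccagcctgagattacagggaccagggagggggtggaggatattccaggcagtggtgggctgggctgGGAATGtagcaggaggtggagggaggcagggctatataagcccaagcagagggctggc

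None of the 35 genes differed between multiparous and virgin hearts at an edgeR adjusted p under 0.05 (0 of 35, against 0.0112% of 17813 genes tested). The smallest adjusted p among them was 0.190, for Synpo2l. The estimates nevertheless lay mostly on the lower side. The log2 fold change was below 0 for 28 of 35 (80.0%, against 51.4% of all genes), with a median of -0.09 against -0.0030 over all genes tested. At an unadjusted p under 0.05, 7 were lower (20.0%, against 4.09% of all genes) and 0 were higher (against 4.04%). The 7 were Synpo2l, Csrp3, Tnnc1, Myom1, Pdlim1, Myoz2 and Nexn, and the groups overlapped for each. Counted in either direction, 7 of 35 stood at that p (against 8.12%). No member separated the groups without overlap in either direction (0.0168% of all genes did so in each). The count of lower genes moved with the scaling: with library totals and no factors 23 of 35 were lower, and scaled to the 12 cardiomyocyte markers also 23, where 6480 and 6688 of all 17813 genes were lower. In a bulk tissue sample, fewer cells of a type and less RNA per cell cannot be told apart.

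**Figure D2:**
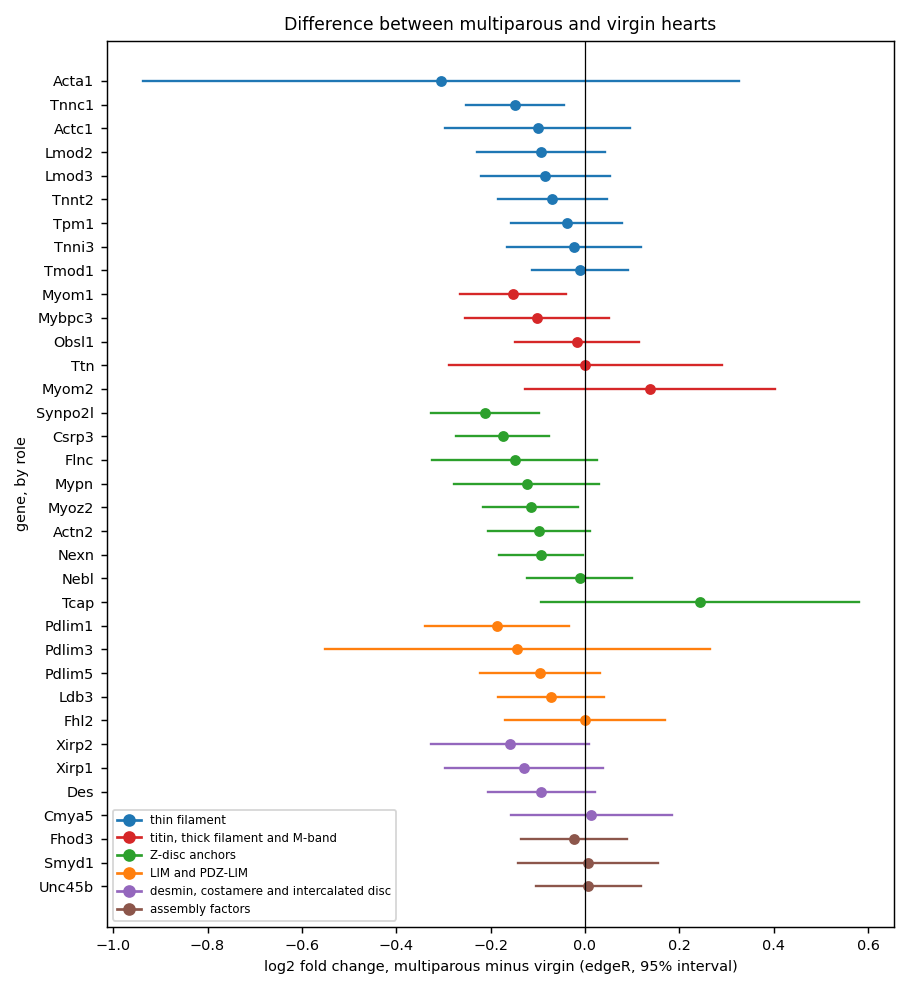
Log2 fold change (multiparous minus virgin) of each gene with its 95% interval from edgeR, coloured by role, 8 libraries per group. Estimates lie below 0 for 28 of 35 genes, and the intervals of 7 genes lie wholly below 0.

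The thin filament genes all had lower means in multiparous hearts, 9 of 9, and 1 of them, Tnnc1, stood at an unadjusted p under 0.05. Tnnc1 encodes the troponin subunit that binds calcium and starts contraction. It measured from 1375 to 1620 CPM in multiparous libraries, with a median of 1445, and from 1422 to 1759 CPM in virgin libraries, with a median of 1637. The groups overlapped, with 3 multiparous libraries below every virgin library and 4 virgin libraries above every multiparous one. Means were 1460 ± 83 against 1619 ± 108 CPM (SD, n = 8 each), a log2 fold change of -0.15 (SE 0.050, 95% interval -0.25 to -0.04, edgeR adjusted p = 0.358). Tnnc1, whose promoter with CATTCC on the opposite strand is printed above (ENSMUSG00000091898.8), lies on chromosome 14 at 31208312 to 31211729, plus strand, in GRCm38.

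Lmod2, leiomodin 2, nucleates and lengthens actin filaments in heart muscle. Its levels ran from 441 to 638 CPM (median 512) in multiparous and from 501 to 609 CPM (median 547) in virgin libraries. The highest library of all was a multiparous one, and 4 multiparous libraries lay below every virgin library. Its log2 fold change was -0.09 (SE 0.064, edgeR adjusted p = 0.778). Actc1, the main actin of the adult heart, measured 6858 to 9236 CPM (median 8090) in multiparous and 5765 to 9934 CPM (median 8870) in virgin libraries. Both ends of its range were virgin libraries, virgin 1 and virgin 8, so the multiparous libraries lay within the virgin range. The promoter shown above with a CArG box belongs to this gene. Its means were 8004 ± 803 and 8578 ± 1244 CPM (log2 fold change -0.10, edgeR adjusted p = 0.841).

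The remaining thin filament genes had log2 fold changes between -0.31 and -0.01. Acta1, the skeletal actin that the heart expresses at a low level, had the largest estimate and the widest interval, -0.94 to 0.33, with 59.5 to 164 CPM in multiparous and 49.5 to 276 CPM in virgin libraries. Leiomodin 3 (Lmod3), cardiac troponin T (Tnnt2), tropomyosin 1 (Tpm1), Tnni3 and the pointed-end cap tropomodulin 1 (Tmod1) followed, at -0.08, -0.07, -0.04, -0.02 and -0.01. The signs of Tnni3 and Tmod1 turned with the scaling, to 0.010 and 0.025 with library totals alone. Of the 3946 exonic bases of Tmod1, 1287 lie opposite Tstd2, and the strand setting of the counting is not given, so reads of the pair may be mixed.

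Among titin, the myosin-binding protein and the M-band genes, 3 of 5 had lower means, and 1, Myom1, stood at an unadjusted p under 0.05. Myom1, myomesin 1, cross-links myosin filaments in the M-band. It measured 1677 to 2104 CPM (median 1850) in multiparous and 1879 to 2290 CPM (median 2056) in virgin libraries. Of the multiparous libraries, 6 lay below every virgin one, while multiparous 3 lay above the virgin mean. Means were 1848 ± 132 against 2054 ± 138 CPM (log2 fold change -0.15, SE 0.054, 95% interval -0.27 to -0.04, edgeR adjusted p = 0.404). Myom1, whose promoter with a CArG box is printed above (ENSMUSG00000024049.15), lies on chromosome 17 at 71002633 to 71126856, plus strand.

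Mybpc3, cardiac myosin-binding protein C, had the highest level per kilobase of this group (811). It ran from 2862 to 3433 CPM in multiparous and from 3071 to 4237 CPM in virgin libraries. Each of the 8 multiparous values was below the virgin mean, but the medians, 3332 and 3276 CPM, stood the other way round, and 3 virgin libraries lay above every multiparous one. Its log2 fold change was -0.10 (SE 0.073, edgeR adjusted p = 0.785). Mean Ttn was 21885 ± 4735 CPM after pregnancies and 21871 ± 4531 CPM without, with a 95% interval of the log2 fold change from -0.29 to 0.29. The obscurin-like gene Obsl1 measured 92.8 against 93.9 CPM. Myom2, the myomesin also called M-protein, had the higher mean, 1213 ± 219 against 1102 ± 223 CPM, with an interval from -0.13 to 0.40.

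The Z-disc anchors held 4 of the 7 genes with an unadjusted p under 0.05, and 8 of these 9 genes had lower means. Synpo2l, a synaptopodin-like actin-binding protein of the Z-disc, measured 154 to 189 CPM (median 164) in multiparous and 163 to 219 CPM (median 197) in virgin libraries. The virgin mean exceeded each multiparous library, and 5 virgin libraries lay above every multiparous one. Virgin 7, the lowest virgin library, lay inside the multiparous range. Means were 166 ± 12 and 193 ± 17 CPM (log2 fold change -0.21, SE 0.055, 95% interval -0.33 to -0.10, edgeR adjusted p = 0.190). Without virgin 7 its adjusted p was 0.0458 in edgeR, and DESeq2 on all 16 libraries gave 0.0379. Both RefSeq starts of Synpo2l have a MEF2 site in the 250 bases before them, 1 of which is printed above. Synpo2l (ENSMUSG00000039376.13) lies on chromosome 14 at 20658946 to 20668354, minus strand.

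Csrp3, the muscle LIM protein, has been studied as a candidate stretch sensor of the Z-disc. It measured 515 to 584 CPM (median 553) in multiparous and 542 to 697 CPM (median 628) in virgin libraries. Here too each of the 8 multiparous values was below the virgin mean, and 6 virgin libraries lay above every multiparous one. Its fold change on the log2 scale was -0.17 (SE 0.047, 95% interval -0.27 to -0.08, edgeR adjusted p = 0.217), and DESeq2 gave an adjusted p of 0.0398. The spread within multiparous hearts was small, 4.16% of the mean against 7.71% in virgin hearts. Csrp3 (ENSMUSG00000030470.15) lies on chromosome 7 at 48830398 to 48848033, minus strand.

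Actn2, the alpha-actinin that cross-links actin filaments in the Z-disc, had the highest level per kilobase of this group (599). Its values ran from 1995 to 2386 CPM (median 2218) in multiparous and from 2073 to 2577 CPM (median 2371) in virgin libraries. Virgin libraries held 4 values above every multiparous one, and the groups overlapped (log2 fold change -0.10, SE 0.051, edgeR adjusted p = 0.671). The calsarcin Myoz2, which tethers calcineurin to the Z-disc and whose promoter with a MEF2 site is printed above, measured 685 ± 45 against 742 ± 46 CPM (log2 fold change -0.12, edgeR adjusted p = 0.540). Nexn, nexilin, measured 164 ± 11 against 174 ± 9 CPM (-0.09, edgeR adjusted p = 0.599), and 287 of its 3826 exonic bases are shared on the same strand with Gm43185. Filamin C, Flnc (-0.15), myopalladin Mypn (-0.12) and nebulette Nebl (-0.01) completed the lower genes.

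The exception was Tcap, telethonin, which caps titin at the Z-disc. It measured 249 to 538 CPM (median 405) in multiparous and 228 to 448 CPM (median 324) in virgin libraries, with means of 396 ± 95 and 334 ± 84 CPM. Its log2 fold change of 0.24 was the largest positive value among the 35 genes, with an interval from -0.09 to 0.58 (edgeR adjusted p = 0.765). The plot of CPM by library sets Tcap and Ttn beside the 7 genes with an unadjusted p under 0.05.

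**Figure D3:**
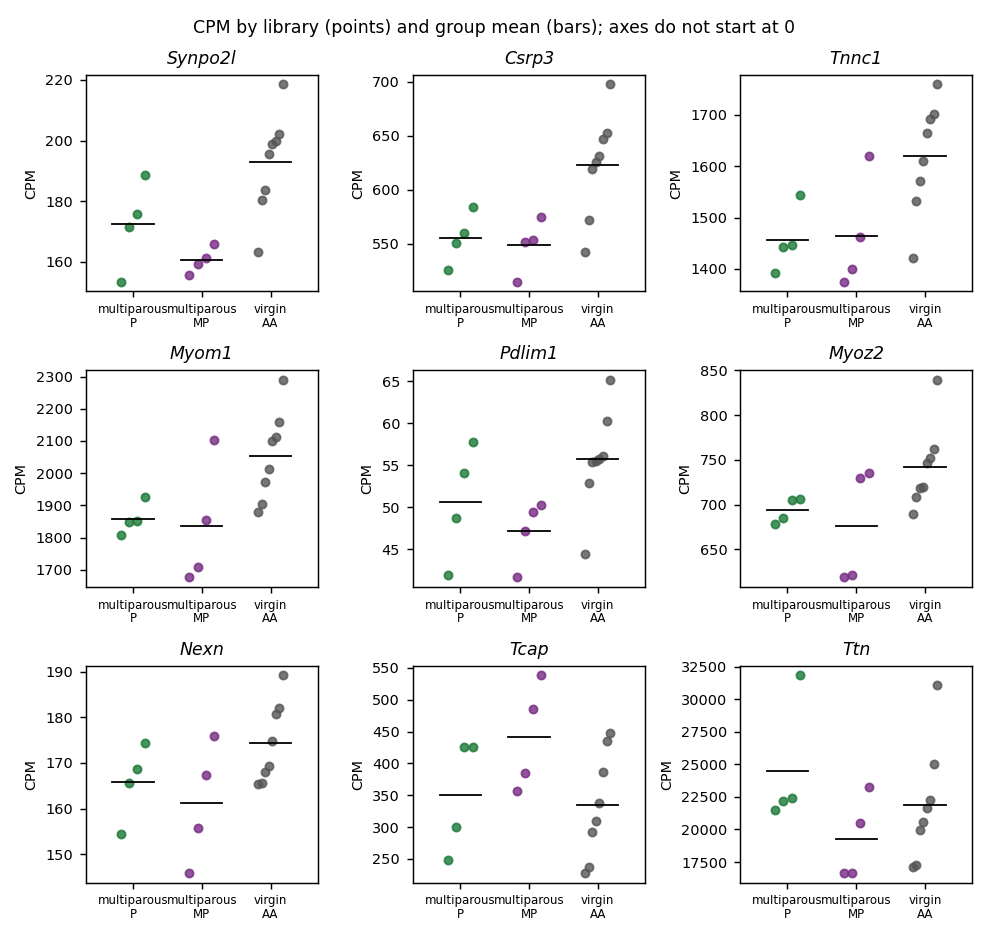
CPM of each library (points) and group means (bars) for the 7 genes with an unadjusted p under 0.05 and for Tcap and Ttn, split by library code into 4 P, 4 MP and 8 virgin (AA) libraries. All 8 multiparous points of Synpo2l and Csrp3 lie below the virgin mean, and in each panel the groups overlap.

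Of the LIM and PDZ-LIM genes, 4 of 5 had lower means, and Pdlim1 alone stood at an unadjusted p under 0.05. Pdlim1 encodes an adaptor that binds alpha-actinin. It measured 41.7 to 57.8 CPM (median 49.1) in multiparous and 44.5 to 65.2 CPM (median 55.6) in virgin libraries. Most libraries of the groups overlapped, with 2 virgin libraries above every multiparous one and 2 multiparous libraries below every virgin one. Its estimate on the log2 scale was -0.19 (SE 0.073, 95% interval -0.34 to -0.03, edgeR adjusted p = 0.493). Of its transcribed 100-base stretches, 5.93% also occur in Gm5864. Pdlim1 (ENSMUSG00000055044.12) lies on chromosome 19 at 40221173 to 40271842, minus strand.

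Pdlim5, which docks protein kinases at the Z-disc, measured 514 to 586 CPM (median 562) in multiparous and 498 to 701 CPM (median 583) in virgin libraries. The virgin mean of 595 CPM exceeded each multiparous library, yet all 8 lay inside the virgin range (log2 fold change -0.10, SE 0.060, edgeR adjusted p = 0.750). Fhl2, a LIM protein that binds titin and also acts as a transcriptional cofactor, had the highest level per kilobase of these genes (563). It ran from 866 to 1229 CPM (median 1101) in multiparous and from 886 to 1172 CPM (median 1087) in virgin libraries. Its means were 1069 CPM in both groups, with an interval from -0.17 to 0.17. Ldb3, also called Cypher, measured 1055 against 1109 CPM, and Pdlim3 8.88 ± 1.52 against 9.81 ± 3.9 CPM.

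Among the genes of desmin filaments, costamere and intercalated disc, 3 of 4 had lower means and none stood at an unadjusted p under 0.05. Xirp2 binds actin and alpha-actinin at the intercalated disc. It measured 1316 to 1590 CPM (median 1492) in multiparous and 1168 to 1947 CPM (median 1679) in virgin libraries. The virgin mean exceeded each multiparous library and 6 virgin libraries lay above every multiparous one, while virgin 1 lay below them all. The log2 fold change was -0.16 (SE 0.080, 95% interval -0.33 to 0.01, edgeR adjusted p = 0.644).

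Des, desmin, the intermediate filament of muscle, measured 1409 to 1821 CPM (median 1557) in multiparous and 1495 to 1780 CPM (median 1653) in virgin libraries. The highest of all 16 was multiparous 3, and 7 of 8 multiparous libraries lay below the virgin mean (log2 fold change -0.09, SE 0.054, edgeR adjusted p = 0.724). Xirp1, which shares the actin-binding Xin repeats of Xirp2, measured 364 ± 33 against 399 ± 57 CPM. Cmya5, myospryn, a large desmin-binding protein, measured 1719 against 1703 CPM, and 2570 of its 11850 exonic bases lie opposite 2 other genes.

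The assembly factors showed no direction, with 1 of 3 lower. Fhod3, a formin that elongates sarcomeric actin, measured 463 to 568 CPM (median 489) in multiparous and 468 to 580 CPM (median 497) in virgin libraries. Unc45b, the chaperone that folds myosin heads, ran from 148 to 172 CPM (median 162) in multiparous and from 135 to 183 CPM (median 163) in virgin libraries. Smyd1, a muscle lysine methyltransferase that binds myosin, ran from 496 to 659 CPM (median 556) in multiparous and from 490 to 632 CPM (median 573) in virgin libraries, and it had the highest level per kilobase of the 3 (124). The groups overlapped almost completely for each. Log2 fold changes were -0.02, 0.0075 and 0.0056, with intervals of -0.14 to 0.09, -0.10 to 0.12 and -0.14 to 0.15.

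The map of single libraries shows how the members moved together within a group. Virgin 2 was high and virgin 1 low across most roles. For Pdlim3 and Tcap virgin 1 stood above virgin 2 instead (14.8 against 7.10 CPM and 309 against 292 CPM). Multiparous 8 was the lowest of all 16 libraries for 8 genes and multiparous 6 for 5. Without virgin 1, 33 of the 35 genes were lower and 16 of them, against 7 with it, stood at an unadjusted p under 0.05, and edgeR still called 0. In the same fit 8665 of all 17901 genes were lower and 1064 were lower at that p, against 728 of 17813 with virgin 1, and 23 genes were called, against 2. Without virgin 2, 25 of the 35 genes were lower and 5 stood at an unadjusted p under 0.05, where 9244 and 614 of all 17978 genes did. The 4 virgin libraries whose summed kidney tubule markers exceeded those of every multiparous library were virgin 1, 3, 4 and 6. Without them 31 of 35 genes were lower, 10 at an unadjusted p under 0.05, and 0 were called, where 9021 of all 18633 genes were lower and 585 at that p.

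**Figure D4:**
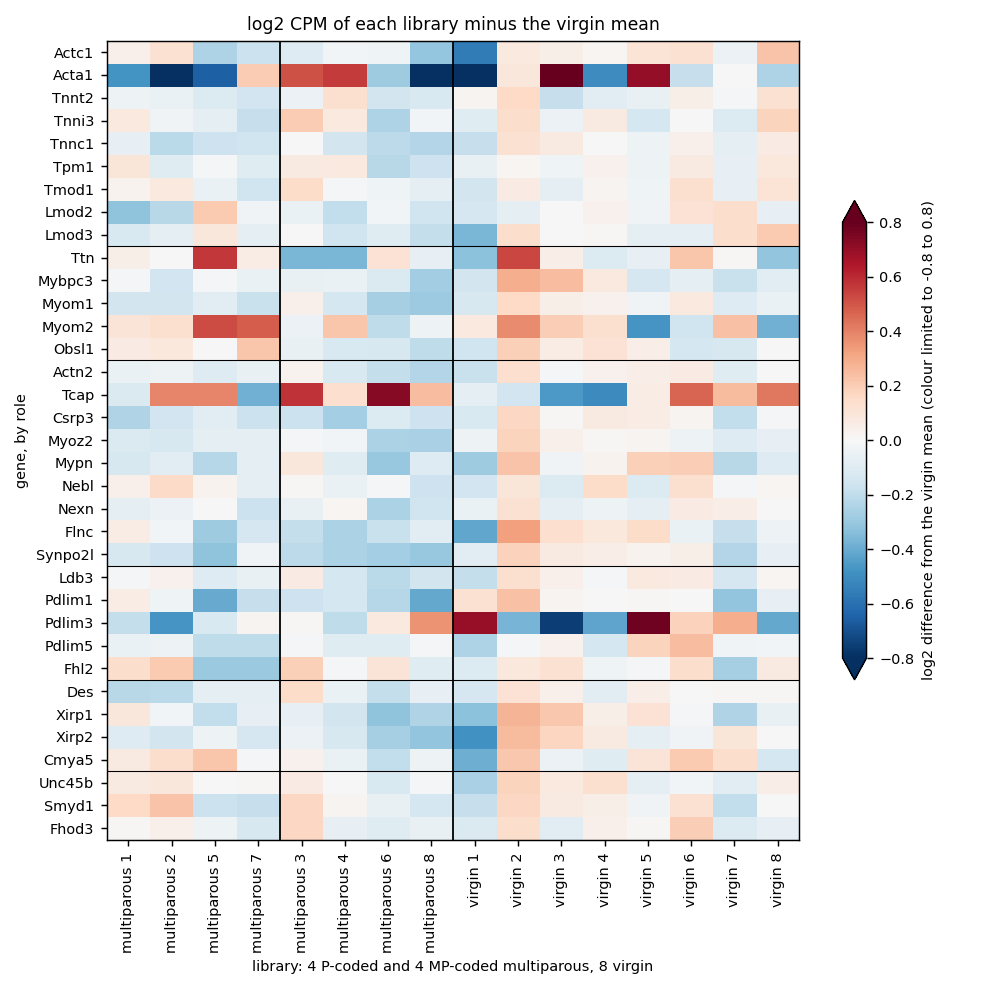
Log2 CPM of each gene in each library minus the virgin mean of that gene, with libraries ordered by code (4 P, 4 MP, 8 virgin) and colour limited to -0.8 to 0.8. Virgin 2 is above the virgin mean for most genes and virgin 1 below it, and Acta1, Pdlim3 and Tcap vary most between libraries.

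Each library code of the multiparous hearts was also compared alone with the same 8 virgin libraries, so the results below share their controls. In MP-coded hearts 31 of 35 genes were lower (against 51.0% of 18442 genes), 3 at an unadjusted p under 0.05 (against 4.27%) and 1 was higher (against 4.38%), together 4 of 35 (against 8.65%). These were Synpo2l, Csrp3 and Pdlim1 on the lower side and Tcap on the higher side. In P-coded hearts 27 of 35 were lower (against 53.0% of 18612 genes), 5 at an unadjusted p under 0.05 (against 4.46%) and 0 higher (against 3.83%), together 5 of 35 (against 8.29%). These were Csrp3, Des, Tnnc1, Myom1 and Synpo2l. No member was called by edgeR in either comparison (against 0.00% and 0.521% of all genes). Nor did any separate from the virgin libraries without overlap, lower or higher, in MP-coded hearts (against 0.369% and 0.412% of all genes) or in P-coded hearts (against 0.655% and 0.381%). The counts at an unadjusted p under 0.05 rested on few libraries. They also moved with the scaling. In MP-coded hearts 21 of 35 genes were lower when scaled to the cardiomyocyte markers, where 5704 of all 18442 genes were, and 27 with library totals alone, where 7130 were. The 3 lower at that p became 6 with library totals and 2 with the cardiomyocyte scaling. Over all 18442 genes those counts were 516 and 335, against 788 with TMM factors. Leaving out libraries, for MP-coded hearts the 3 became 13 without virgin 1, 8 without multiparous 3 and 5 without virgin 7. The counts over all genes in those fits were 1083 of 18140, 756 of 18709 and 841 of 18229. The 1 higher at that p became 0 with DESeq2, without virgin 1, 2, 3, 4 or 5, and without multiparous 3 or 6. In those fits 639 to 1355 of all genes were higher at that p. For P-coded hearts the 5 became 9 without virgin 1, 1 without multiparous 1 or multiparous 2, and 3 without multiparous 7, virgin 2, virgin 4 or virgin 6. All genes lower at that p numbered 831 with every library, 1186 without virgin 1, and 689 and 731 without multiparous 1 and multiparous 2. In the fits that left 3 members they numbered 726 to 748.

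Csrp3 had nearly the same level under both codes, 549 ± 25 CPM in MP-coded and 555 ± 24 CPM in P-coded libraries (n = 4 each). Synpo2l measured 160 ± 4 CPM in the 4 MP-coded and 172 ± 15 CPM in the 4 P-coded libraries, with log2 fold changes against virgin hearts of -0.26 and -0.17. Tcap measured 441 ± 85 CPM in the 4 MP-coded and 350 ± 90 CPM in the 4 P-coded libraries, with log2 fold changes of 0.40 and 0.06. The difference between the codes was -0.10 for Synpo2l and 0.34 for Tcap on the log2 scale (edgeR adjusted p = 0.617 and 0.524).

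Compared directly, MP-coded and P-coded hearts showed their lowest estimates in 4 long genes and their highest in Acta1 and Tcap, and none was called (0 of 35, against 0.121% of 18123 genes). In MP-coded hearts 23 of 35 genes were lower (against 49.4%), but only 14 when libraries were scaled to the 12 cardiomyocyte markers, where 5909 of all genes were lower. At an unadjusted p under 0.05, 4 were lower (11.4%, against 5.07%) and 0 higher (against 5.93%). Counted in either direction, the 4 were 11.4% of the members, near the 11.0% of all genes. These counts moved with the settings. Scaled to the cardiomyocyte markers, 2 were lower and 2 higher at that p, where 396 and 1664 of all 18123 genes were. Without the filter on low counts 4 were lower and 2 higher, where 1390 and 1748 of all 33426 genes were. Without multiparous 4, 2 were lower and 2 higher, where 809 and 1062 of all 18490 genes were. Without multiparous 8, 2 were lower and 1 higher, where 966 and 939 of all 18541 genes were. The 4, Obsl1, Myom2, Cmya5 and Ttn, are named after their values were seen, and each kept a lower estimate in all 15 alternatives run.

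Obsl1 measured 81.1 to 89.8 CPM in MP-coded and 93.5 to 109 CPM in P-coded libraries (4 each), without overlap. It was the only member so separated in that direction, 2.86% of the 35, which is near the 2.73% of all genes. In the other direction 0 members were separated (against 3.03%). The log2 fold change of Obsl1 was -0.22 (SE 0.059, edgeR adjusted p = 0.195). Ttn measured 16683 to 23283 CPM in the 4 MP-coded and 21490 to 31818 CPM in the 4 P-coded libraries, with overlapping groups (log2 fold change -0.34, SE 0.150, edgeR adjusted p = 0.439). Myom2 averaged 1075 ± 135 and 1350 ± 209 CPM (n = 4 each, log2 fold change -0.33, SE 0.117, edgeR adjusted p = 0.324). Cmya5 averaged 1616 ± 107 and 1821 ± 123 CPM (n = 4 each, log2 fold change -0.17, edgeR adjusted p = 0.431). For Ttn, Myom2 and Cmya5 the highest of all 16 libraries was multiparous 5, a P-coded library. Without it 3 members were lower and 1 higher at an unadjusted p under 0.05, where 1072 and 1110 of all 18431 genes were.

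Across the 35 genes, longer genes tended to have lower estimates in MP-coded against P-coded hearts, with exceptions. Of the 11 members above 7000 exonic bases 8 were lower, and of the 24 others 15. Pdlim5, Tnnt2 and Fhod3 were long and had higher estimates. Spearman's rho was -0.53 between exonic bases and the log2 fold change of MP-coded against P-coded hearts, where it was 0.0015 over the 18100 tested genes with a length. In multiparous against virgin hearts the same rho was 0.12 over the members and 0.050 over 17790 genes. For MP-coded against virgin hearts it was -0.21 over the members and 0.043 over all genes. For P-coded against virgin hearts it was 0.27 and 0.030. Genes are not independent replicates, and the members share the same libraries, so these are descriptions. The share of reads counted for no gene ran from 26.46% to 32.71% in MP-coded and from 29.42% to 33.13% in P-coded libraries. Macrophage markers were higher in MP-coded hearts for 10 of 10 genes and lower for 0 (against 49.4% of all genes). At an unadjusted p under 0.05, 3 of these markers were higher (against 5.93%), with sums of 371 to 575 CPM against 311 to 415 CPM. Their part in the difference was not tested.

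**Figure D5:**
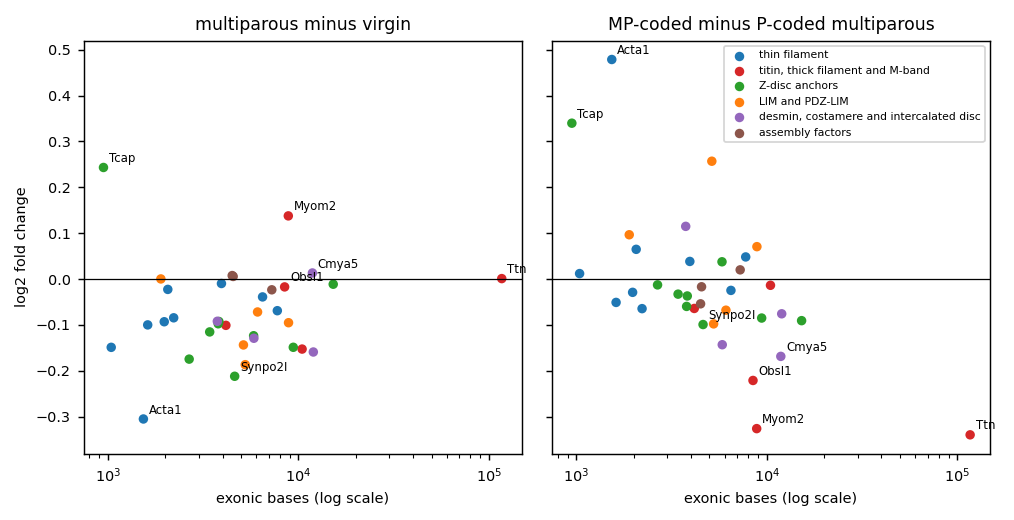
Log2 fold change of each of the 35 genes against its exonic bases (log axis), for multiparous against virgin hearts and for MP-coded against P-coded multiparous hearts, coloured by role. In the second comparison Ttn, Myom2, Obsl1 and Cmya5 lie lowest and the short genes Acta1 and Tcap highest, with a Spearman's rho of -0.53 over the members.

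Ratios between paired genes do not depend on library scaling. The share of Acta1 in the summed Acta1 and Actc1 counts per exonic length averaged 1.32 ± 0.54% after pregnancies and 1.5 ± 0.78% in virgin animals (SD, n = 8 per group). Virgin 3 was highest at 3.20%, and the difference in means was not larger than the spread (exact two-sided permutation over 12870 assignments, p = 0.650, adjusted over 3 ratios 0.650). The share of Tnni1, the slow skeletal and fetal troponin I, in Tnni1 and Tnni3 was 0.00475 ± 0.0025% against 0.00397 ± 0.0018% (exact permutation p = 0.474, adjusted 0.650). Tnni1 itself stood at 0.233 and 0.194 CPM. A count of 3 equalled 0.0131 to 0.0868 CPM by library, so the share of Tnni1 rests on few reads in most libraries.

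The log2 ratio of Myom2 to Myom1 per exonic length was -0.38 ± 0.25 in multiparous and -0.68 ± 0.29 in virgin hearts. Of the multiparous libraries 7 lay above the virgin mean. The difference of 0.30 had an exact permutation p of 0.0472 and did not pass once adjusted over the 3 ratios (0.142). By code the difference from virgin hearts was 0.45 in P-coded libraries (exact permutation p = 0.0242) and 0.15 in MP-coded ones (exact permutation p = 0.386). The codes themselves differed by 0.30 with an exact permutation p of 0.143, so a difference between the codes was not shown. Leaving out 1 library at a time, the difference between multiparous and virgin hearts ran from 0.23 to 0.35, and its exact permutation p rose above 0.05 in 10 of 16 cases.

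The levels of 4 pairs of members were compared across the 16 libraries. Xirp1 and Xirp2 varied together, with a Pearson r of 0.72 (permutation p = 0.00162, adjusted over 4 pairs 0.00648) and a Spearman rho of 0.59 (permutation p = 0.0192, adjusted 0.0766). Without virgin 2 and virgin 3, the libraries farthest from the median of Xirp1, r was 0.53 (permutation p = 0.0483). That check kept virgin 1, the lowest of all 16 libraries for both genes (314 and 1168 CPM), and the pair was not compared without it. Within the 8 multiparous libraries r was 0.57 and within the 8 virgin libraries 0.72. Xirp2 and the actin cross-linker Flnc gave an r of 0.67 (permutation p = 0.00412, adjusted 0.00824) and a rho of 0.47 (permutation p = 0.0679, adjusted 0.136). That relation rested on virgin 1 and virgin 2, since r was 0.32 without them (permutation p = 0.263), -0.21 within multiparous and 0.79 within virgin libraries. Csrp3 and Tcap gave an r of -0.26 (permutation p = 0.329) and a rho of -0.15 (permutation p = 0.572). Acta1 and Actc1 gave an r of 0.44 (permutation p = 0.0912) and a rho of 0.30 (permutation p = 0.260). Neither pair reached a permutation p under 0.05. For Csrp3 and Tcap r was 0.53 within the 8 multiparous and -0.33 within the 8 virgin libraries. For Acta1 and Actc1 it was 0.095 and 0.57.

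Sarcomere genes outside the list had log2 fold changes from -0.52 to 0.09, and those of the 35 genes ran from -0.31 to 0.24; the lists were not tested against each other. Of 35 such genes 30 were tested, and 25 had lower estimates in multiparous hearts (against 51.4% of all genes), 7 at an unadjusted p under 0.05 (against 4.09%), with none called by edgeR. The 3 with the smallest p were Mybpc2, the fast myosin-binding protein (12.3 ± 2.9 against 17.6 ± 3.9 CPM, log2 fold change -0.52, edgeR adjusted p = 0.266), the kinase-like Alpk3 (343 against 385 CPM, -0.17, edgeR adjusted p = 0.352) and the actin capping subunit Capza1 (30.6 against 33.8 CPM, -0.14, edgeR adjusted p = 0.352). Costamere and dystrophin complex genes had lower estimates in 17 of 20, 2 at an unadjusted p under 0.05, beside the same shares of all genes (51.4% and 4.09%). Their smallest p belonged to dystrobrevin Dtna (log2 fold change -0.12), integrin-linked kinase Ilk (-0.07) and Lims2 (-0.09). Regulators of muscle transcription and splicing showed no common direction, with 8 of 17 estimates lower (against 51.4%) and 0 at an unadjusted p under 0.05 in either direction (against 8.12%). The first 3 by p were the coactivators Mrtfb (0.08) and Myocd (-0.08) and the factor Tead1 (-0.08).

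Markers of other cell types were summed beside these results. Of the 12 cardiomyocyte markers outside the list, 10 had lower means in multiparous hearts (against 51.4% of all genes). Of these, 2 (Myl3 and Ckm) were lower at an unadjusted p under 0.05 (against 4.09%). The sums were 61603 to 72920 CPM in multiparous and 59629 to 75190 CPM in virgin libraries. Fibroblast markers had higher means for 7 of 10 genes and lower means for 3 (against 51.4%). At an unadjusted p under 0.05, 4 were higher (against 4.04%). Their sums were 1657 to 2397 CPM in multiparous and 1502 to 2034 CPM in virgin libraries. Macrophage markers had higher means for 10 of 10 and lower means for 0 (against 51.4%). At an unadjusted p under 0.05 stood 0 (against 8.12%), with sums of 311 to 575 against 306 to 587 CPM. Smooth muscle and pericyte markers summed to 1844 to 2105 against 1489 to 2068 CPM. Kidney tubule markers differed most of these lists in size: 10 of 11 tested had lower estimates in multiparous hearts (against 51.4%). All 10 were lower at an unadjusted p under 0.05 (against 4.09%), and the other was higher at that p (against 4.04%). Their median was -3.43 on the log2 scale, and edgeR called none. Their sums ran from 1.25 to 16.8 CPM in multiparous and from 3.44 to 54.3 CPM in virgin libraries. In P-coded against virgin hearts 6 of 11 tested were called lower (against 0.521% of all genes called in either direction). Between the codes 3 of 6 tested were called higher in MP-coded hearts (against 0.121% in either direction). The part of these cell types in the lower estimates of the sarcomere genes was not tested.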

How the data were processed

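RNA sequencing measured the middle section of the left ventricle in 8 multiparous and 8 virgin mice. The authors deposited raw counts per gene for each library, using HTSeq 0.11.1, STAR 2.7.11b, bcl2fastq 2.20, FastQC 0.12.1, Trim Galore 0.6.10 with cutadapt 4.8, and SAMtools 1.19.2, on GRCm38.p6, per the submitters' processing notes. Per the labels' protocols, the kit was stranded and removed ribosomal RNA. The sources used here name neither the annotation release nor whether counting used strand. Reads counted for no gene, ambiguous ones included, were 26.46% to 33.13% of a library and entered neither library sizes nor tests.

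Counts were tested with edgeR 4.0.16 (TMM factors, filterByExpr, quasi-likelihood F-test on group alone, Benjamini-Hochberg over all tested genes at 0.05). The method was checked on simulated data whose planted changes were larger than any estimate for the members between multiparous and virgin hearts. That check says nothing of changes as small as theirs. Intervals are 95% intervals, and SE comes from the F statistic. Exonic lengths and coordinates are from GENCODE M21 of GRCm38, to which 99.53% of identifiers matched. Alternatives included DESeq2 1.42.0, limma 3.58.1 (voom), other factors and filters, a replicate block and leaving out each library. Ratios were tested by exact permutation, correlations by 100000 resamples. The members, role groups, gene lists and pairs were chosen with earlier results of these data known. Values are given in full for the 2 smallest p and the highest level per kilobase in each role group, and other members by range and count.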

Additional observations from a re-analysis of the deposited data

Results flagged for a closer look

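Among 76 groups of 8 libraries tested (35 genes and 3 ratios in each group), 4 had a single library whose gap to its nearest neighbour took an unusually large part of the group's range. Chance gives about 1 in 20 groups. Actc1 in virgin 1 measured 5765 CPM, the lowest of the virgin libraries, with a gap of 0.651 of the range. Xirp2 in virgin 1 measured 1168 CPM, also the lowest of the virgin libraries, with a gap of 0.550 of the range. Virgin 1 was lowest of the virgin libraries for 21 of the 35 genes, so these values are part of a wider pattern in that library. Tnnt2 in multiparous 4 measured 2894 CPM, the highest of the multiparous libraries, with a gap of 0.597. Des in multiparous 3 measured 1821 CPM, the highest of all 16 libraries, with a gap of 0.549. No cause was tested.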

How the results depend on the processing

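Of the 35 genes, 25 kept the direction of their difference between multiparous and virgin hearts in all 25 alternatives, and 10 turned in at least 1 of them, all of these with a log2 fold change near 0 (69 of 875 values). With library totals alone and with scaling to the cardiomyocyte markers, the log2 fold change became 0.010 and 0.0090 for Tnni3, 0.025 and 0.024 for Tmod1, 0.019 and 0.016 for Obsl1, 0.025 and 0.023 for Nebl, and 0.012 and 0.010 for Fhod3. With DESeq2 size factors, no filter, DESeq2 and voom it became -0.00065, -0.00087, -0.00065 and -0.012 for Ttn and -0.00029, -0.0015, -0.00029 and -0.0058 for Fhl2. Without the 4 libraries rich in kidney transcripts, an alternative chosen after seeing the data, it became -0.049 for Ttn, -0.060 for Cmya5 and -0.0097 for Unc45b. Leaving out single libraries, the ranges that crossed 0 were -0.058 to 0.0081 for Tnni3, -0.034 to 0.010 for Tmod1, -0.096 to 0.091 for Ttn, -0.054 to 0.011 for Obsl1, -0.035 to 0.011 for Nebl, -0.035 to 0.039 for Fhl2, -0.036 to 0.045 for Cmya5, -0.027 to 0.035 for Unc45b, -0.028 to 0.031 for Smyd1 and -0.053 to 0.0066 for Fhod3. The causes were not tested.

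No member was called in multiparous against virgin hearts except by DESeq2, which called 2, Csrp3 and Synpo2l, and without virgin 7, where edgeR called 1 (0 to 1 over the fits without 1 library). DESeq2 also called 1 member, Synpo2l, in MP-coded against virgin hearts. Synpo2l, Csrp3, Tnnc1 and Myom1 stayed at an unadjusted p under 0.05 in all 25 alternatives, Pdlim1 in 22, Myoz2 in 19 and Nexn in 14. The number of members lower at that p was 4 with library totals alone and ranged from 5 to 16 without 1 library, and the number with a lower mean from 25 to 33. The same counts over all genes were 397, 614 to 1064, and 8665 to 9344. Over all genes, the number called in multiparous against virgin hearts, 2, became 0 with library totals, with scaling to cardiomyocyte markers and without the kidney-rich libraries, 56 without a filter, 130 with DESeq2 and 0 to 55 without 1 library. For MP-coded hearts it went from 0 to 1 with either scaling, 132 with DESeq2 and 0 to 5 without 1 library. For P-coded hearts it went from 97 to 229 without a filter, 46 with a mean of at least 1 CPM, 240 with DESeq2, 1 with voom and 0 to 170 without 1 library. Between the codes it went from 22 to 7 with library totals, 389 without a filter, 11 with a mean of at least 1 CPM, 295 with DESeq2, 13 with voom and 3 to 197 without 1 library.

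Replicate numbers did not pair the libraries. Deviations of log2 CPM from the group mean of each gene correlated between -0.106 and 0.291 in same-numbered libraries. By that measure 1 of 8 matched its own number best. With the replicate block, 33 genes and 0 members were called, 30 members had lower means and 6 were lower at an unadjusted p under 0.05. Of all 17813 genes, 8951 had lower means and 703 were lower at that p. The log2 fold change under the block was -0.0018 for Ttn and -0.0067 for Fhl2. Under the block, exact sign-flip p-values were 0.539 for the share of Acta1, 0.453 for that of Tnni1 and 0.0391 for the ratio of Myom2 to Myom1. Without 1 library, the difference in the share of Acta1 ran from -0.278 to 0.0723 (the latter without virgin 3), that of Tnni1 from 0.00036 to 0.0013, and that in the Myom2 to Myom1 ratio from 0.23 to 0.35, with exact permutation p from 0.0244 to 0.0945. Without the 2 farthest libraries, r was 0.32 for Xirp2 and Flnc and 0.024 for Csrp3 and Tcap. The depth of 34560606 or more gene counts leaves no member near the counting floor, so the precision is set by the spread between libraries.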
